A study of Mus musculus with 6 samples.

Results

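A set of 10 genes that encode transcription factors known for building or maintaining group 2 innate lymphoid cells (ILC2s) were followed in mouse ILC2s sorted by the expression of Chat, the enzyme that makes acetylcholine. The genes were Gata3, Rora, Bcl11b, Gfi1, Ets1, Id2, Runx1, Runx3, Tox and Zbtb16. They were found by symbol through their Entrez IDs, and all 10 were among the 27179 genes counted. Of these, 9 had enough counts to be tested among 12967 genes and 1, Zbtb16, had none. The cells were ILC2s taken through a Chat negative gate (3 samples) or a Chat positive gate (3 samples), and total RNA was sequenced after amplification with an ultra-low-input kit. The labels give each gate the sample numbers 1 to 3. The sources used here give no strain, age, tissue or stimulus and do not say how Chat was detected. Whether each sample was a separate animal is not stated either, and the p-values therefore reflect sample-to-sample spread that may be technical.

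ILC2s are tissue lymphocytes without an antigen receptor that release type 2 cytokines such as IL-5 and IL-13 when epithelial alarm signals reach them. Their development runs from a bone marrow progenitor in which Id2 blocks E proteins, the transcription factors that favour B and T cell fates, and through a stage marked by Zbtb16. Gata3, Rora, Bcl11b and Gfi1 then set the ILC2 fate and hold back the programs of other innate lymphoid cells, while Ets1, Tox and the RUNX factors act at the progenitor stage or in the expansion of the cells.

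Libraries held 37154269 to 50361306 counts. Chat stood at 16.5 to 26.5 CPM, the read count scaled to library size, in the Chat negative libraries and at 169 to 204 CPM in the Chat positive ones, which checks the labels (log2 difference 3.21, SE 0.21, edgeR adjusted p = 0.0174). Of 11 listed ILC2 markers, Il5 and Il2ra, a chain of the IL-2 receptor, were the most abundant. Il5 stood at 7010 ± 1379 CPM in the negative gate and 11183 ± 3207 in the positive gate, and Il2ra at 4397 ± 1197 and 4654 ± 952 (SD, n = 3 each). Others of that list were far lower, with Il1rl1 at 85.9 ± 31.2 and 125 ± 39.2 CPM and Thy1, the lowest, at 14.3 ± 7.11 and 10.9 ± 5.70. Markers of other lymphocytes were mixed. No library held more than 3 counts of Cd8a, of T cells, or more than 5 of Ncr1, of NK cells, and the T cell receptor component Cd3e stood at 4.01 ± 0.876 and 3.07 ± 1.39 CPM. Other genes of the same lists were well above that: the signalling adaptor Lat stood at 155 ± 10.3 and 152 ± 13.1 CPM, the B cell receptor component Cd79b at 70.6 ± 4.07 and 79.7 ± 9.75, the granule protease Gzma at 56.5 ± 37.9 and 82.8 ± 46.9 and Cd3g, another T cell receptor component, at 28.7 ± 10.4 and 28.8 ± 12.7. Markers of further cells were also present. The epithelial marker Epcam averaged 68.1 CPM in the negative gate and 46.5 in the positive gate. Cd68, of macrophages and monocytes, averaged 15.8 and 15.7 CPM, and Il22, of ILC3s, 3.1 and 2.9. The part of these markers of other cells in the results was not tested. Of 8 mast cell and basophil markers, 5 (Cpa3, Ms4a2, Mcpt4, Tpsb2 and Prss34) had 0 counts. Kit, the most abundant of that list, stood at 190 ± 50.1 and 209 ± 61.1 CPM, and Mcpt8 at 123 ± 86.6 and 98.7 ± 65.0. Both libraries numbered 2 stood apart from the others of their gate, and the counts, differences and ratios of the factors without them are given with the comparison of the sample numbers.

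Promoter sequence was available for 7 of the 10 genes in RefSeq's GRCm38.p6 table, the assembly behind the authors' mm10 build. Stretches of 250 bases that end at the base before a transcription start are printed for 3 genes: Gata3 and Id2, because they are the most abundant genes of the set with such a stretch, and the more upstream start of Runx3, because Runx3 had the most negative difference between the gates. Capitals mark matches on either strand to short motifs that the families of these factors are known to bind: AGATAA for GATA factors, TGTGGT for RUNX factors, CCGGAA for ETS factors, AGGTCA for ROR receptors, and CAGCTG or CACCTG for the E proteins that Id2 blocks.
Gata3, chr2:9878601-9878850, minus strand: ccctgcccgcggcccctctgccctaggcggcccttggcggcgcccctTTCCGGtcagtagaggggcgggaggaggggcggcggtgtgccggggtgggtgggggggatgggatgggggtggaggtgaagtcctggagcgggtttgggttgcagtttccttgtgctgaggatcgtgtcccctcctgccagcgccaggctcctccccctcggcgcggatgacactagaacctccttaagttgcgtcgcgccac
Id2, chr12:25096093-25096342, minus strand: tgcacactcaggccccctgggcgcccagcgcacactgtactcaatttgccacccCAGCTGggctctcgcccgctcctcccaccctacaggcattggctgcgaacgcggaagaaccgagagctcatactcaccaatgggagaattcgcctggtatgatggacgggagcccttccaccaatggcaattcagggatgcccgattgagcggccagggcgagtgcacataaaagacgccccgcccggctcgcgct
Runx3, chr4:135120395-135120644, plus strand: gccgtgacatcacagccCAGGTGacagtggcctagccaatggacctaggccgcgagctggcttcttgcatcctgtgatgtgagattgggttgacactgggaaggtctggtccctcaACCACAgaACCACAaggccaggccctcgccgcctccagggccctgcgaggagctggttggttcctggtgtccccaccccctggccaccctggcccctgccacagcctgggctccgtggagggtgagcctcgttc
The Runx3 stretch held 2 RUNX motifs, starting 134 and 126 bases before the start, on the minus strand, and an E-box 233 bases before it. The RUNX motif occurred in 14% of 32851 stretches of the same length over all genes, and in 1 of the 10 stretches of these factors. Id2 held 1 E-box, 196 bases before its start, and E-boxes occurred in 27.7% of all stretches and in 4 of the 10. Gata3 held 1 ETS motif, 203 bases before its start, against 12% of all stretches and 2 of the 10. None of the 10 stretches held the GATA or the ROR motif, which 9.99% and 14% of all stretches held. These matches describe letters in a short window and are not evidence of binding.

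Levels were compared between genes as CPM per kilobase (kb) of the longest annotated transcript, over all 6 libraries. Id2 was the most abundant, at 1262 ± 154 CPM per kb (SD over 6 libraries), followed by Gata3 at 685 ± 121 and Ets1 at 452 ± 59.9. Runx3 came next at 49.5 ± 8.45, then Bcl11b at 20.01 ± 3.23. Rora stood at 11.8 ± 1.05 CPM per kb, Tox at 10.3 ± 4.25, Runx1 at 5.97 ± 0.729 and Gfi1 at 3.17 ± 1.31. The ranges of Gata3 and Ets1 over the libraries overlapped on this scale, as did those of Rora and Tox, Tox and Runx1, and Runx1 and Gfi1. Ranges of the other neighbours did not overlap. Within each library, Gata3 stood above Ets1, Tox above Runx1 and Runx1 above Gfi1. Only Rora and Tox changed order, with Tox above Rora in Chat negative 2 and Chat positive 2 and below it elsewhere. A gene transcribed mainly from a shorter isoform would stand higher per kb than given here.

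**Figure D1:**
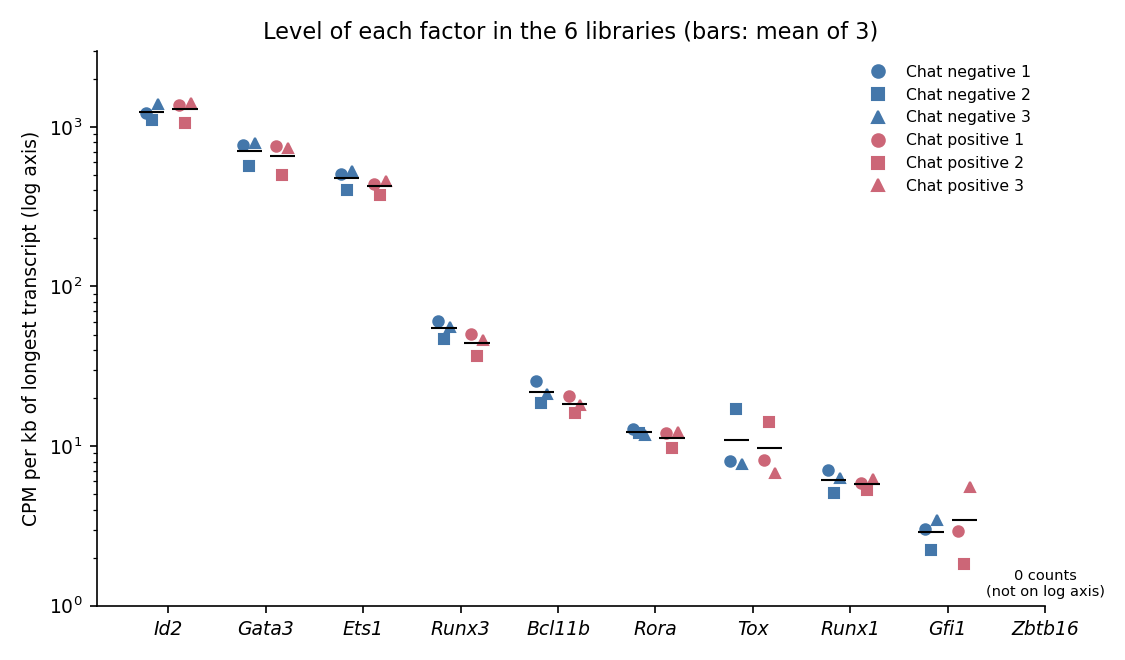
Level of each factor in every library as CPM per kb of longest transcript on a log axis, with Chat negative libraries in blue, Chat positive libraries in red, 1 marker shape per sample number and a black bar at the mean of each gate's 3 libraries. Id2, Gata3 and Ets1 stand above the other factors, the gates overlap for every factor with counts, and the number 2 libraries (squares) are high for Tox; Zbtb16 had 0 counts and cannot be drawn on a log axis.

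No factor of the set passed the test between the gates. Of the 9 tested, 0 were called by edgeR's quasi-likelihood test with Benjamini-Hochberg adjustment over 12967 genes at 5%, where 0.00771% of all genes were called, namely Chat alone, a call lost when Chat negative 1 or 3 or Chat positive 1 or 3 was left out. Of the 9, 0 had an unadjusted p under 0.05, where 2.43% of all genes did. That count was 1 (Runx3) without Chat negative 2, where 4.74% of all genes were under 0.05, and it was higher without both number 2 libraries and with the sample number as a block. The libraries of the gates overlapped for all 9, while 8.14% of all genes showed no overlap. Estimated log2 differences, Chat positive minus Chat negative, ran from -0.30 to 0.25, with 7 below 0 and 2 above. Their median was -0.11, against 0.0044 over all genes, of which 49.1% lay below 0. It moved to -0.21 without Chat negative 2, -0.19 without Chat positive 3, -0.070 without Chat negative 1 and -0.031 without Chat positive 2. In bulk samples, a lower share of cells that express a gene and less RNA per cell cannot be told apart.

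Gata3, the zinc finger factor that specifies ILC2s and drives their cytokine genes (Entrez 14462, mm10 chromosome 2, 9857078 to 9887953), stood at 2467, 1829 and 2544 CPM in Chat negative libraries 1, 2 and 3. It stood at 2425, 1603 and 2355 CPM in Chat positive libraries 1, 2 and 3. The number 2 library was the lowest of its gate on both sides, and the gates overlapped. This gave a log2 difference of -0.10 (SE 0.20, 95% interval -0.58 to 0.38, edgeR adjusted p = 1.00). Within numbers 1, 2 and 3 the log2 difference was -0.02, -0.19 and -0.11. Without Chat positive 2 the estimate changed sign, to 0.067. Reads of Gata3 could be shared with 9230102O04Rik, whose exons overlap it on the same strand, but that gene had only 137 to 162 counts against at least 79333 for Gata3.

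Rora, a nuclear receptor that ILC2s need to develop (Entrez 19883, chromosome 9, 68653404 to 69388246), varied least across the libraries, with a ratio of 1.32 between the highest and the lowest, next to 1.33 for Id2. Its level was 140, 131 and 128 CPM in Chat negative libraries 1, 2 and 3 and 131, 106 and 133 CPM in Chat positive libraries 1, 2 and 3. Chat positive 2 was low and the other 5 libraries lay close together. The log2 difference was -0.11 (SE 0.12, 95% interval -0.39 to 0.17, edgeR adjusted p = 1.00), and -0.03 without both libraries of number 2.

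Bcl11b, a zinc finger factor that keeps the ILC2 fate against that of ILC3s (Entrez 58208, chromosome 12, 107910403 to 108004145), stood at 206, 151 and 172 CPM in Chat negative libraries 1, 2 and 3. In Chat positive libraries 1, 2 and 3 it stood at 167, 130 and 148 CPM. Each Chat positive library was below the Chat negative library of its number, although the gates overlapped. The estimated difference was -0.25 on the log2 scale (SE 0.15, 95% interval -0.61 to 0.11, edgeR adjusted p = 1.00), with -0.30, -0.21 and -0.22 within numbers 1, 2 and 3.

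Gfi1, a repressor that supports Gata3 and restrains ILC3 genes in ILC2s (Entrez 14581, chromosome 5, 107716655 to 107725805), was the least abundant factor with counts. It had 366, 277 and 424 counts in Chat negative libraries 1, 2 and 3, or 8.65, 6.39 and 9.82 CPM. It had 311, 269 and 642 counts in Chat positive libraries 1, 2 and 3, or 8.40, 5.22 and 15.9 CPM. Chat positive 3 was the high library and Chat positive 2 the low one, a 3.05-fold span that was the widest of the set and far above counting error, which is 6.10% for its smallest count. The log2 difference was 0.25 (SE 0.41, 95% interval -0.71 to 1.21, edgeR adjusted p = 1.00) and became -0.30 without Chat positive 3, so its sign rested on that library.

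Ets1, founder of the ETS family and needed for the expansion of ILC2s (Entrez 23871, chromosome 9, 32636241 to 32757820), stood at 2560, 2058 and 2705 CPM in Chat negative libraries 1, 2 and 3. It stood at 2232, 1892 and 2331 CPM in Chat positive libraries 1, 2 and 3. As for Bcl11b, every number was lower in the positive gate but the gates overlapped. The log2 difference was -0.18 (SE 0.15, 95% interval -0.53 to 0.16, edgeR adjusted p = 1.00), with -0.20, -0.12 and -0.21 within numbers 1, 2 and 3.

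Runx3, a DNA-binding partner of Cbfb that acts in cytotoxic and innate lymphocytes (Entrez 12399, chromosome 4, 135120645 to 135177990), had the most negative difference of the set and the smallest unadjusted p, 0.102. Its level was 238, 183 and 215 CPM in Chat negative libraries 1, 2 and 3. In Chat positive libraries 1, 2 and 3 it stood at 196, 142 and 181 CPM. Chat negative 2 lay below Chat positive 1, so the gates overlapped, yet each number was lower in the positive gate. Its log2 difference was -0.30 (SE 0.16, 95% interval -0.67 to 0.08, edgeR adjusted p = 1.00), with -0.28, -0.37 and -0.25 within numbers 1, 2 and 3.

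Runx1, its relative of earlier blood progenitors (Entrez 12394, chromosome 16, 92601466 to 92826074), stood at 41.6, 29.9 and 36.7 CPM in Chat negative libraries 1, 2 and 3, and at 34.5, 30.9 and 36.2 CPM in Chat positive libraries 1, 2 and 3. The gates interleaved. Between them the log2 difference was -0.09 (SE 0.16, 95% interval -0.46 to 0.27, edgeR adjusted p = 1.00), and the estimate was 0.023 without Chat negative 1. The balance of both RUNX factors was read as the share of Runx3 in their summed counts, which needs no scaling between libraries. That share was 85.5% ± 0.413 in the negative gate and 83.5% ± 1.45 in the positive gate (n = 3 each), a difference of -2.01 percentage points, or -1.33 without Chat positive 2. The gates did not overlap, but only narrowly, since the lowest Chat negative share was 85.1% and the highest Chat positive share 85.0%, and the difference within number 1 was -0.10 points against -3.80 and -2.12 within numbers 2 and 3. The two-sided exact permutation p was 0.1, the smallest that 3 against 3 libraries can give.

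Runx3, Bcl11b, Ets1 and Gata3 were the 4 of 9 factors that were lower in the positive gate for 3 of 3 numbers, a pattern seen in 17.3% of all genes tested. None was higher for 3 of 3 numbers, against 22.3% of all genes. With the sample number as a block, edgeR called 44 genes (0.339%) and none of these factors, with adjusted p = 0.0701 for Runx3, 0.103 for Bcl11b, 0.126 for Ets1 and 0.315 for Gata3. Without robust dispersions the same block called 1 gene and gave Runx3 an adjusted p of 0.143, so the 44 calls needed both the block and that option. Unadjusted p values were under 0.05 for Runx3, Bcl11b and Ets1 in both of these fits, where 16.5% and 16.1% of all genes were, and for Gata3 as well in the blocked limma-voom and DESeq2 fits, where 16.1% and 14.1% were. DESeq2 with the block called 461 genes (3.56%), and of the set Runx3 (adjusted p = 0.000594), Bcl11b (0.0106) and Ets1 (0.0239) as lower in the positive gate, a direction in which it called 2.12% of all genes. DESeq2 without the block called 4 genes (0.0308%) and limma-voom with the block 1 (0.00771%), in both cases none of these factors. The call for these 3 factors therefore depended on using that tool and the block together, and over all alternatives the adjusted p of Runx3 ran from 0.000594 to 1.00.

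**Figure D2:**
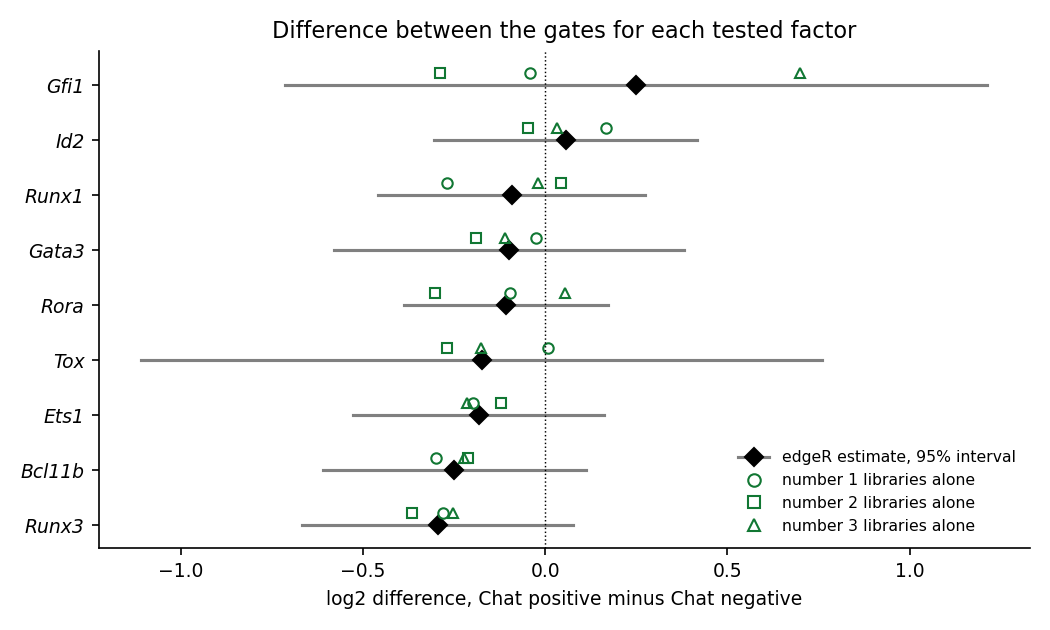
Log2 difference of each tested factor between the gates, Chat positive minus Chat negative, with the edgeR estimate (diamond), its 95% interval (grey line) and the difference within each sample number (open green markers). Every interval includes 0, and the 3 within-number differences of Runx3, Bcl11b, Ets1 and Gata3 all lie below 0.

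Id2, a protein without a DNA-binding region that captures E proteins (Entrez 15902, chromosome 12, 25093799 to 25096092), stood at 2423, 2164 and 2724 CPM in Chat negative libraries 1, 2 and 3. It stood at 2719, 2096 and 2787 CPM in Chat positive libraries 1, 2 and 3. The gates spanned the same range. Their log2 difference was 0.06 (SE 0.15, 95% interval -0.30 to 0.42, edgeR adjusted p = 1.00), and became -0.022 without Chat negative 2 and -0.033 without Chat positive 3. The partners it captures stood far lower: Tcf3 at 78.0 ± 12.1 and 82.3 ± 14.6 CPM, Tcf12 at 38.3 ± 1.57 and 35.1 ± 3.90, and Tcf4 at 19.7 ± 4.69 and 18.6 ± 1.25. Id2 counts were 18.0, 14.9 and 21.3 times the summed counts of these 3 E proteins in Chat negative libraries 1, 2 and 3, and 20.4, 13.5 and 23.4 times in Chat positive libraries 1, 2 and 3. The number 2 library was the lowest of each gate. On the log2 scale the ratio was 4.16 ± 0.259 and 4.22 ± 0.412 (n = 3 each, two-sided exact permutation p = 0.9). The difference of 0.057 changed sign without Chat negative 2 (-0.075), Chat positive 1 (-0.0090) or Chat positive 3 (-0.11).

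**Figure D3:**
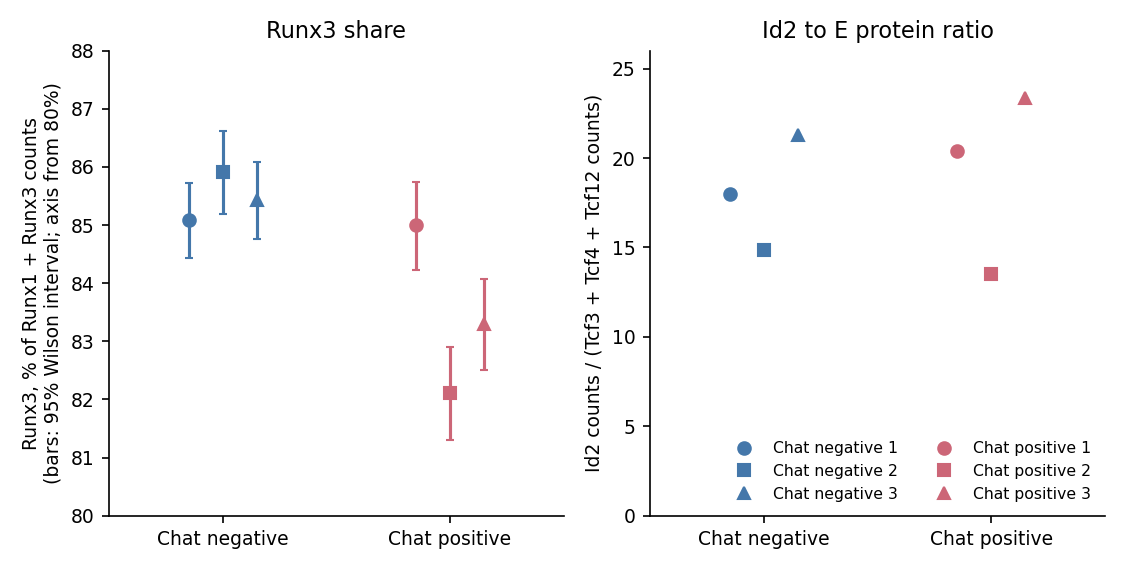
Share of Runx3 in the summed Runx1 and Runx3 counts (left, axis from 80%, bars are 95% Wilson intervals for counting error only) and ratio of Id2 counts to the summed counts of Tcf3, Tcf4 and Tcf12 (right), with 1 point per library. The Runx3 share is lower in Chat positive 2 and 3 and is nearly the same in both number 1 libraries, while the Id2 ratio is lowest in the number 2 library of each gate.

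Tox, an HMG-box factor needed early in the development of innate lymphoid cells (Entrez 252838, chromosome 4, 6686353 to 6991557), stood apart in the number 2 library of each gate. Its level was 32.0, 67.8 and 30.5 CPM in Chat negative libraries 1, 2 and 3. It stood at 32.2, 56.2 and 27.0 CPM in Chat positive libraries 1, 2 and 3. Both number 2 libraries were high and the other 4 lay between 27.0 and 32.2 CPM. The number 2 library stood 2.17-fold above the mean of numbers 1 and 3 in the Chat negative gate and 1.90-fold above it in the Chat positive gate. The log2 difference between the gates was -0.17 (SE 0.39, 95% interval -1.11 to 0.76, edgeR adjusted p = 1.00), and -0.08 without both number 2 libraries. It changed sign without Chat negative 2 (0.30) or Chat positive 3 (0.010). A shift of number 2 at least this large on the log2 scale in both gates, and in the same direction in both, was seen in 5.36% of the genes tested.

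The other factors lay the opposite way in the number 2 libraries. For 7 of the 9 tested factors, all but Tox and Rora, number 2 was the lowest library of both gates, which was so for 29.6% of all genes. For Gata3 the number 2 library stood at 0.730 times the mean of numbers 1 and 3 in Chat negative and 0.671 times in the positive gate, and for Gfi1 at 0.692 and 0.429 times. Without both number 2 libraries, log2 differences between the gates ran from -0.27 for Runx3 to 0.40 for Gfi1, and edgeR again called none of the 9, although Runx3 (0.0224) and Ets1 (0.032) had an unadjusted p under 0.05, as did 8.86% of all genes. The difference of Runx1 was then -0.15 and that of Id2 0.094. The Runx3 share then differed by -1.11 points between the gates, and the log2 ratio of Id2 to the E proteins by 0.16 (two-sided exact permutation p = 0.333 and 0.667, where 2 against 2 libraries cannot go below 0.333). Of 12 tested family relatives of the set, 6 were above the mean of the other libraries in number 2 of both gates and 3 below it. Over all genes tested, number 2 was the highest library of both gates for 31.2%. Among the relatives above, 2 were chosen after their values were seen. Tox2 stood 2.35-fold and 1.71-fold above the other libraries in number 2, and Id3, another inhibitor of E proteins, 2.70-fold and 2.71-fold. Markers of other cells differed between the numbers as well. All 3 tested markers of macrophages and monocytes were below the other libraries in number 2 of both gates, with Cd68 at 0.347 and 0.340 times. Directions were mixed within the T cell list, the ILC1 and NK cell list, and the mast cell and basophil list. Of 6 tested T cell markers, 3 were below the other libraries in number 2 of both gates and 2 above, with Cd3g at 0.571 and 0.408 times and Cd247 at 1.46 and 1.17 times. Of 3 tested markers of ILC1s and NK cells, 2 were below, among them Gzma at 0.194 and 0.273 times, and Nkg7, another granule gene, was above at 1.59 and 1.63 times. Both tested markers of mast cells and basophils went opposite ways, with the basophil protease Mcpt8 at 0.183 and 0.184 times and the stem cell factor receptor Kit at 1.53 and 1.57 times. The summed T cell markers ranged over 191 to 206 CPM in the negative gate and 190 to 203 CPM in the positive gate, mostly from Lat. The part of other cells in the number pattern was not tested.

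**Figure D4:**
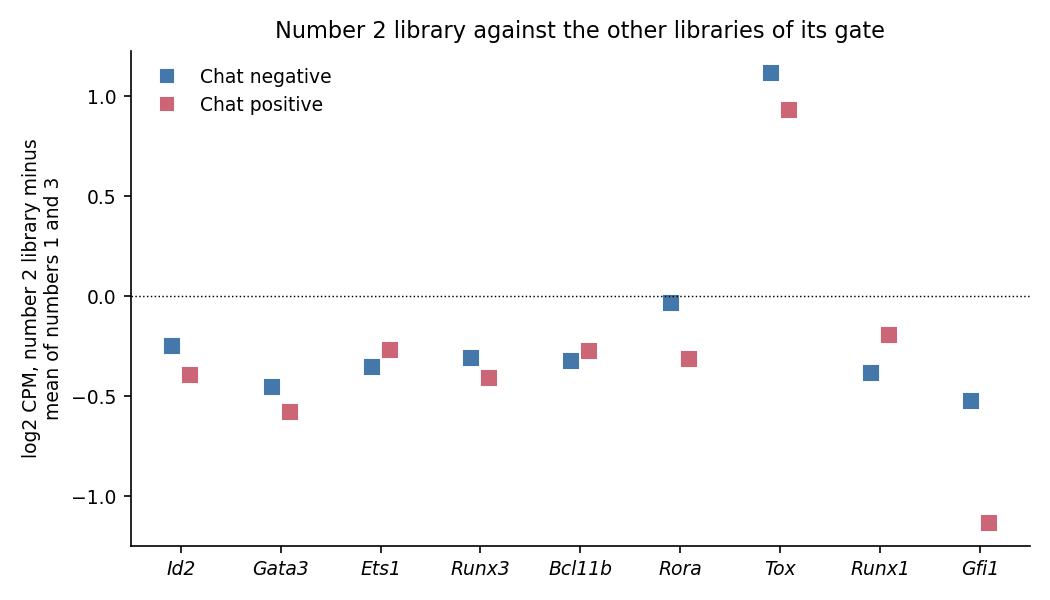
Log2 CPM of the number 2 library minus the mean of numbers 1 and 3 for each tested factor, in the Chat negative gate (blue) and the Chat positive gate (red). Tox lies near 1 in both gates, and the other 8 factors lie below 0 in both.

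Zbtb16, which encodes PLZF, the factor that marks progenitors of innate lymphoid cells and is known to be low in mature ILC2s (Entrez 235320, chromosome 9, 48651797 to 48836225), had 0 counts in all 6 libraries. For counting error alone, a library at 0 may hold up to 3 counts. That is 0.0596 to 0.0807 CPM depending on the library, here relative to the unscaled library totals. The count table also holds nearly empty rows for genes that most cells use, with Rpl13 at 37 to 74 counts beside Rpl4 at 29123 to 37066, so this 0 cannot be read as absence of the transcript with certainty. Other progenitor factors were mixed. Tcf7, chosen after its values were seen, had 2 to 16 counts, was not tested, and is under the same limit. Nfil3, by contrast, averaged 523 CPM in the negative gate and 461 in the positive gate, and Tox 43.4 and 38.5.

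Partners and antagonists of these factors were 18 genes, of which 17 were tested. None passed in either direction, 2 had an unadjusted p under 0.05, and 13 lay below 0 with a median log2 difference of -0.08. Over all genes tested, 2.43% had an unadjusted p under 0.05, 49.1% lay below 0 and 8.14% showed no overlap between the gates. The same shares apply to the lists that follow. Cbfb, the shared subunit of all RUNX factors, stood at 227 ± 50.8 CPM in the negative gate and 230 ± 59.8 in the positive gate. Chd4, the remodelling ATPase of the NuRD complex, stood at 97.1, 107 and 105 CPM in Chat negative libraries 1, 2 and 3 and at 90.6, 76.8 and 76.6 in Chat positive libraries 1, 2 and 3, without overlap (log2 difference -0.34, SE 0.11, edgeR unadjusted p = 0.0177, adjusted p = 1.00). Zfpm1, a cofactor of GATA proteins, stood at 4.28, 4.54 and 1.62 CPM in Chat negative libraries 1, 2 and 3 and at 1.73, 1.59 and 1.61 in Chat positive libraries 1, 2 and 3, so that Chat negative 3 lay with the other gate. Mta2, another NuRD subunit, stood at 381 ± 3.42 and 354 ± 28.9 CPM, and the corepressor Tle4 at 7.55 ± 3.06 and 4.71 ± 0.731.

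Of 19 family relatives, 12 were tested and none passed, with 9 below 0 and a median log2 difference of -0.07. Close paralogs of several factors were nearly empty, with Gfi1b at 0 to 1 counts, Bcl11a and Rorb at 0 to 2, and Erg and Id4 at 0 to 3. Among the abundant relatives, Fli1, an ETS factor, stood at 207 ± 10.2 and 198 ± 11.6 CPM and Tox4 at 196 ± 12.3 and 193 ± 14.9. Zbtb32, a zinc finger repressor, stood at 20.05 ± 5.58 and 30.3 ± 6.15 CPM (log2 difference 0.59, SE 0.24, edgeR unadjusted p = 0.0435), while Ets2 stood at 35.9 ± 1.77 and 30.7 ± 1.77 and Zbtb7a at 146 ± 17.8 and 126 ± 12.1.

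Of 22 further transcription factors of innate lymphoid cells, 20 were tested and none passed, with 13 below 0 and a median of -0.13. The lowest unadjusted p values were those of Foxo1 (0.0158, log2 difference -0.54), which keeps lymphocytes quiescent, Zeb1 (0.027, -0.37), a repressor, and Batf (0.0377, 0.28), an AP-1 factor, all by edgeR with adjusted p = 1.00. The abundant Nfil3, a factor of the earliest innate lymphoid progenitors, stood at 523 ± 47.7 and 461 ± 48.9 CPM, and Bhlhe40, a repressor tied to activation, at 408 ± 98.8 and 336 ± 83.3. Of 15 factors that define other lineages, 7 were tested and none passed, with 4 below 0 and a median of -0.13. The most abundant were Irf8, of myeloid cells, at 29.0 ± 6.84 and 30.0 ± 10.4 CPM and Foxp3, of regulatory T cells, at 2.45 ± 0.967 and 1.63 ± 0.519. Mitf, of mast cells, stood at 1.33 ± 0.153 and 1.66 ± 0.413 CPM, and Gata1, of red cells and mast cells, at 0.735 ± 0.247 and 0.379 ± 0.279.

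The 11 ILC2 genes known to depend on Gata3 were all tested, and none passed. Their median log2 difference was 0.04, with 6 above 0 and 5 below, beside -0.10 for Gata3 itself. Of the 11, 2 had an unadjusted p under 0.05, where 2.43% of all genes did. Il5 had the largest difference, 0.67 on the log2 scale (SE 0.25, edgeR unadjusted p = 0.0318, adjusted p = 1.00), although its libraries overlapped between the gates. Il13 stood at 298 ± 27.5 and 423 ± 43.6 CPM without overlap (log2 difference 0.50, SE 0.12, edgeR unadjusted p = 0.00409, adjusted p = 1.00), and the inhibitory receptor Klrg1 at 509 ± 27.5 and 597 ± 69.8.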

How the data were processed

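RNA was measured in 6 libraries of sorted mouse ILC2s. The authors deposited raw read counts per Entrez gene ID, with no normalisation, judging from whole numbers that sum differently in each column. Per the submitters' processing notes, the tools included STAR 2.3.0 and CASAVA 1.8.2, and the build was mm10. No source used here names the counting program or its strand setting, so reads of antisense RNAs whose annotated exons overlap Gata3, Rora, Gfi1, Runx1 or Tox cannot be told apart from theirs. Symbols and coordinates came from RefSeq (GRCm38.p6) for 25275 of 27179 IDs, and transcript lengths from GENCODE.

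Genes were filtered with filterByExpr, scaled with TMM and tested with edgeR 4.0.16 (quasi-likelihood, robust, R 4.3.3, two-sided, 5% threshold). CPM use the TMM-scaled totals, except for the limit given for Zbtb16, which uses the unscaled totals. The SE is the one the F statistic implies. Alternatives used other scalings and filters, the number as a block, DESeq2 1.42.0, limma 3.58.1 and left-out libraries. Added after the data were seen were fits and ratios without both number 2 libraries and a blocked fit without robust dispersions. Deviations from the gate means correlated across genes at 0.29, 0.67 and 0.43 for numbers 1, 2 and 3. Between unlike numbers they correlated at -0.54 to 0.30. Chat negative 1 correlated with Chat positive 3 at 0.30, and Chat negative 3 with Chat positive 1 at 0.20. Only number 2 was therefore set apart, and numbers 1 and 3 were not clearly told from each other. The block treats all the numbers as pairs, which no label states.

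The 10 factors, the gene lists and the tests were chosen with earlier results of these data known. Named from each list other than the marker lists were the 3 genes with the smallest p, the 2 most abundant and nearly empty relatives. From the lists of markers of ILC2s and other cells only some genes are named, among them defining markers.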

Additional observations from a re-analysis of the deposited data

How the results depend on the processing

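Of 171 comparisons of a tested factor under 19 alternatives, 161 kept their direction and stayed short of the threshold, 7 changed sign and 3 passed the threshold. The sign changes all came from leaving out 1 library, where log2 differences ran from -0.24 to 0.067 for Gata3, -0.30 to 0.55 for Gfi1, -0.033 to 0.17 for Id2, -0.21 to 0.023 for Runx1 and -0.56 to 0.30 for Tox. The 3 that passed were Bcl11b, Ets1 and Runx3 in DESeq2 with the replicate block, where the number of factors called was 3 and the number of genes called 461. Genes called were 1 as reported, 44 in edgeR with the replicate block and 1 with that block but without robust dispersions, 4 in DESeq2, 2 without both libraries of number 2 and 0 to 1 when 1 library was left out, with 136 to 626 genes at an unadjusted p under 0.05 in these last fits, 315 as reported and 1154 without both libraries of number 2. The cause of these differences was not tested. The median log2 difference of the factors was -0.11, and -0.21 to -0.031 when 1 library was left out, the former without Chat negative 2 and the latter without Chat positive 2. The difference in the Runx3 share was -2.77 to -1.33 points when 1 library was left out, and -2.01 with the pairing by number, where a sign-flip permutation of 3 pairs gave an exact p = 0.25, the smallest it allows. The log2 ratio of Id2 to E proteins differed by 0.06 between the gates (0.06 with the pairing by number) and by -0.11 to 0.29 when 1 library was left out. With counts per kb of transcript, the differences were -1.48 points for the Runx3 share and 0.022 for the log2 ratio. Levels of both depend on transcript length. Per kb, Id2 stood at 25.7 times the E proteins in Chat positive 2 and 46.3 times in Chat positive 3, and the Runx3 share there was 87.4% and 88.3%. Gfi1 had the fewest counts of the tested factors, with 269 in its smallest library, although its spread over the libraries was far above counting error.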
